A study of Mus musculus with 13 samples.

Results

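The H3K27ac part of the series consists of 2 peak lists from cultured olfactory basal cells of the mouse, with 123155 peaks in the library of cell line 2 and 112175 in the library of cell line 3. Together they hold 235330 of the 533196 peaks in the 8 lists of the series (44.1%). All peaks on chromosomes 1 to 19 and X were taken (123071 and 112098), and a peak that overlapped at least 1 bp of a peak in the other library is called shared, any other peak single. The study also mapped the Polycomb proteins RING1B and CBX8 and the repressive mark H3K27me3 by chromatin immunoprecipitation with sequencing (ChIP-seq), with 2 libraries per antibody and 5 inputs. Both H3K27ac libraries come from wild-type C57BL6 cells that were isolated from adult olfactory epithelium by the receptor c-KIT. The cells grew attached to gelatin in NeuroCult medium with its proliferation supplement, EGF, FGF2, heparin, penicillin and streptomycin, BMP4 and SB431542, an inhibitor of the TGF-beta and activin type I receptors. These factors were in the medium of both libraries, so no comparison here bears on them. Chromatin was fixed with formaldehyde and sheared by sonication. Line 2 was at passage 13 (replicate 1) and line 3 at passage 14 (replicate 2), so line and passage cannot be told apart. The series describes its replicates as biological, each line being a single culture. With n = 2 no test was made, and a difference between the lists is given as a measurement of these 2 libraries.

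H3K27ac is acetylation of lysine 27 of histone H3. It is placed mainly by the acetyltransferases p300 and CBP, marks active promoters and active enhancers, and cannot be on the same lysine as the methylation laid down by Polycomb repressive complex 2. Wide or closely spaced acetylated stretches are often found around genes that are highly used in a cell type. In the olfactory epithelium, horizontal basal cells are a reserve stem cell with keratin 5 and p63, and globose basal cells are the dividing precursors of the sensory neurons. Each peak carries the fold enrichment that the authors' peak caller gave it over its control, and the authors' assignment to an annotation class and to the nearest gene. Nearest means nearest in sequence, and a distal peak need not act on the gene it is named for.

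Promoter sequences are shown first for genes that collected many shared distal peaks and have an acetylated start themselves, because they differ in make-up although all carry the mark. Each line gives the 250 bases before the start of a RefSeq transcript (GRCm38.p6), 5′ to 3′ on the gene's strand. Inhba lies on the plus strand (chr13:16011601-16011850), Tgfbr2 on the minus strand (chr9:116175364-116175613), Plk2 on the plus strand (chr13:110394794-110395043) and Frmd6 on the plus strand (chr12:70825264-70825513). Runx1, on the minus strand, has an upstream start (chr16:92826075-92826324) and a downstream start (chr16:92697330-92697579). Capitals mark matches, on either strand, to TGANTCA (bound by AP-1), GGGCGG (SP and KLF factors), CCAAT and TATAAA. A match is a description of letters and not a proven binding site.
Inhba: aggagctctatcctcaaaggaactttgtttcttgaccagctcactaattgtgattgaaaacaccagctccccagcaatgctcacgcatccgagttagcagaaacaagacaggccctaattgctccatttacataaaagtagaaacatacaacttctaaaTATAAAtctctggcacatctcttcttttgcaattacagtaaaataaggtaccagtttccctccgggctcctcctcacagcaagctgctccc
Tgfbr2: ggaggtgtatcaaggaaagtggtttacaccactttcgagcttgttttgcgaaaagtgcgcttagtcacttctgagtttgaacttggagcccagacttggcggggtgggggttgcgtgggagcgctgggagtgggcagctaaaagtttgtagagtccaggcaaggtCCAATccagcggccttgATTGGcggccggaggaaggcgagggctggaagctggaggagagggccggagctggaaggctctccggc
Runx1 upstream start: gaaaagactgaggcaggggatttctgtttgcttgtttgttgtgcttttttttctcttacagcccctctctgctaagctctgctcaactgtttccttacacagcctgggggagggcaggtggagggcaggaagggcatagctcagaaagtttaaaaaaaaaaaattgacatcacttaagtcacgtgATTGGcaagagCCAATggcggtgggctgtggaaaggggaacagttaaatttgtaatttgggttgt
Runx1 downstream start: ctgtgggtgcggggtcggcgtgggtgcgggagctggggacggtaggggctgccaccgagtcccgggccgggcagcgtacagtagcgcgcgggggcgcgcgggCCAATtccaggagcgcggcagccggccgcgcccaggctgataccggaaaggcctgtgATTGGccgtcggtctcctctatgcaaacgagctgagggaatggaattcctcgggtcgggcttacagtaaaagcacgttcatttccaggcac
Plk2: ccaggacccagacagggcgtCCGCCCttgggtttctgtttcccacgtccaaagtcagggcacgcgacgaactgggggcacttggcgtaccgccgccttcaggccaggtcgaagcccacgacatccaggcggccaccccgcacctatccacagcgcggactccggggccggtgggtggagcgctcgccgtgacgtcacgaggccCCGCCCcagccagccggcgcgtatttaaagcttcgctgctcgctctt
Frmd6: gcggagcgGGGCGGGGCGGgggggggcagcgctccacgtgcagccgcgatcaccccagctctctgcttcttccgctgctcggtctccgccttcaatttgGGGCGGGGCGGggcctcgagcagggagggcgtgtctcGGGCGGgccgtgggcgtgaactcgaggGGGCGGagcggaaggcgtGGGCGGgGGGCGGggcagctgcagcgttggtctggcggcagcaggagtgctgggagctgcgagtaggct

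The Inhba window held 3 CpG and 1 TATAAA, and the window of the upstream Runx1 start held 2 CpG and 2 matches to CCAAT. The downstream Runx1 start had 27 CpG, Plk2 28 and Frmd6 28, with 8 matches to GGGCGG in Frmd6 and 2 in Plk2. Tgfbr2 lay between, with 12 CpG. No TGANTCA was found in any of these windows. Peaks of both libraries lay over each of them. The folds there were 14.7 in line 2 and 14.5 in line 3 for Inhba, 8.52 and 8.93 for Tgfbr2, 9.77 and 8.73 at the upstream and 19.3 and 19.9 at the downstream start of Runx1, 14.0 and 14.4 for Plk2, and 15.04 and 18.1 for Frmd6. All of these windows were picked for an acetylated start, so the peaks over them are a description of the choice.

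The label of the cells was set against marker genes. The horizontal basal cell markers Krt5 (promoter folds of 11.4 and 10.5 in lines 2 and 3), Krt14 (9.61 and 8.003), Perp (9.82 and 10.2) and Itgb4 (11.3 and 10.4) had shared promoter peaks. The other members of that list were weaker. Trp63 had 2.98 and 5.54, Icam1 2.97 and 3.26 and Krt15 2.39 and 2.51, and Col17a1 had 2.52 and 2.57 in promoter peaks that were not shared. With a −log10 q of at least 5 in both lists, 4 of the 8 horizontal basal cell markers kept a shared promoter peak, against 7 as listed. Of the 8 globose basal cell markers 5 had one, all with folds above 8. These were Sox2, a transcription factor of basal and neural precursors (23.6 and 23.9), Hes6 (9.78 and 11.4), and Mki67 (16.6 and 13.0), Top2a (10.3 and 8.25) and Ezh2 (17.4 and 17.8), which are used by dividing cells of many kinds. Cxcr4, a chemokine receptor, had no promoter peak in line 2 and 5.37 in line 3. Kit, the gene for the receptor used in the isolation, had no promoter peak in line 2 and a fold of 2.45 in line 3, and 50 and 30 distal H3K27me3 peaks in the H3K27me3 lists (lines 1 and 2) were assigned to it. Lgr5 had no promoter peak in either library. Keratins of simple epithelium, Krt8 (11.4 and 11.5) and Krt18 (13.0 and 13.8), and the epithelial adhesion genes Epcam (11.6 and 12.3) and Cdh1 (7.86 and 11.0) were acetylated in both lines. Over all protein-coding genes, 54.5% had a shared promoter peak, and the median promoter fold was 9.31 in line 2 and 9.45 in line 3. The share of globose basal cell markers, 5 of 8, was near that of all genes. Hes6, Top2a and Krt14 were near the median fold. Markers of both basal cell types, and of sustentacular cells or glands, carried the mark in part, and the peak at the c-KIT gene was weak or not listed. Bulk peak lists cannot tell a few cells with a strong mark from a weak mark in all cells, which holds for every marker named here.

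Shared peaks were wider and more enriched than single peaks. Of the peaks on chromosomes 1 to 19 and X, 77396 of line 2 (62.9%) and 78843 of line 3 (70.3%) were shared (mean 66.6% ± 5.27, SD, n = 2). Shared peaks covered 141 and 134 Mb, and the 45675 and 33255 single peaks 25.3 and 17.7 Mb. The median width was 1054 and 1011 bp for shared peaks and 449 and 409 bp for single peaks. The median fold was 3.38 and 3.65 for shared peaks and 2.54 and 2.77 for single peaks, a ratio of 1.33 and 1.32 (1.32 ± 0.0105, SD, n = 2). The difference between shared and single peaks was thus larger than the difference between the libraries for both measures. A wide peak meets the 1 bp rule more easily than a narrow one, so the difference in width is in part set by the rule.

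The share of peaks found in both libraries rose with each step of fold and width. In line 2 it went from 28.9% in the lowest quintile of fold to 99.4% in the highest, and in line 3 from 49.2 to 96.8%. Among peaks of at most 300 bp it was 41.0 and 46.9%, and among those of more than 10 kb (1299 and 1083 peaks) it was 100 and 99.9%. Of peaks with a fold of at least 8, 4 of 11417 were single in line 2 and 116 of 12618 in line 3. The strongest single peaks were therefore mostly from line 3. Depth is unknown, since the lists hold no read counts, and its part in the weak single peaks was not tested.

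**Figure D1:**
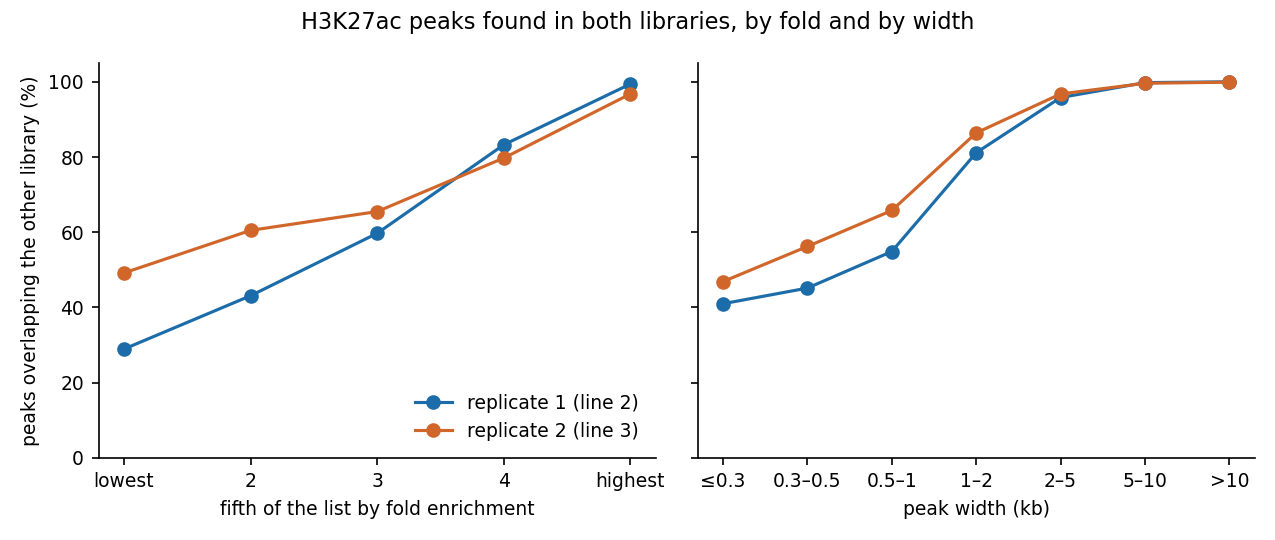
Percentage of H3K27ac peaks (vertical axis) that overlap a peak of the other library, by quintile of the authors' fold enrichment within each list (left) and by peak width in kb (right). Blue points are the line 2 library and orange points the line 3 library; both rise, from 28.9 and 49.2% in the lowest quintile to 99.4 and 96.8% in the highest.

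Most shared peaks paired simply, and their folds were similar. In line 2, 71883 shared peaks (92.9%) overlapped exactly 1 peak of line 3. Here and for the widest and strongest distal peaks below, the line 3 fold is the highest among the line 3 peaks that overlap the line 2 peak. The folds differed by less than 1.5 times at 86.0% of shared peaks and by 2 times or more at 3514 (4.54%), of which 92.7% were higher in line 3. Taking the highest line 3 fold for each line 2 peak favours line 3, so the 92.7% is not a measure of the lines alone. The median log2 ratio of line 3 to line 2 was 0.08. Across the 77396 shared peaks, which come from the same 2 libraries and are not independent, the rank correlation of the folds was 0.763, with 0.890 at promoters, 0.695 in distal intergenic sequence and 0.624 in introns. The order of peaks by fold was thus closer between the lines at promoters than away from them.

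Promoters were the class found most often in both libraries. A promoter peak, by the authors' annotation, lies within 3 kb of a transcript start. In line 2, 79.8% of promoter peaks were shared, against 61.3% of distal intergenic and 56.1% of intron peaks, and in line 3 the values were 84.3, 63.4 and 66.0%. Within the promoter class it was the innermost 1 kb that stood out, with 89.9 and 90.6% shared and a median fold of 8.09 and 8.20, against 59.0 and 68.7% at 1 to 2 kb, where the median fold was 2.73 and 3.00. Promoter peaks made up 23.6 and 23.5% of shared peaks and 10.1 and 10.4% of single peaks. Intron peaks made up 33.3 and 33.9% of shared and 44.1 and 41.3% of single peaks. Distal intergenic peaks made up 27.5 and 27.3% of shared peaks, and 29.4% of the single peaks of line 2 but 37.4% of those of line 3. Shared peaks overlap and so have nearly the same classes in both lists, while the single peaks of line 3 held a larger share of distal sequence than those of line 2.

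**Figure D2:**
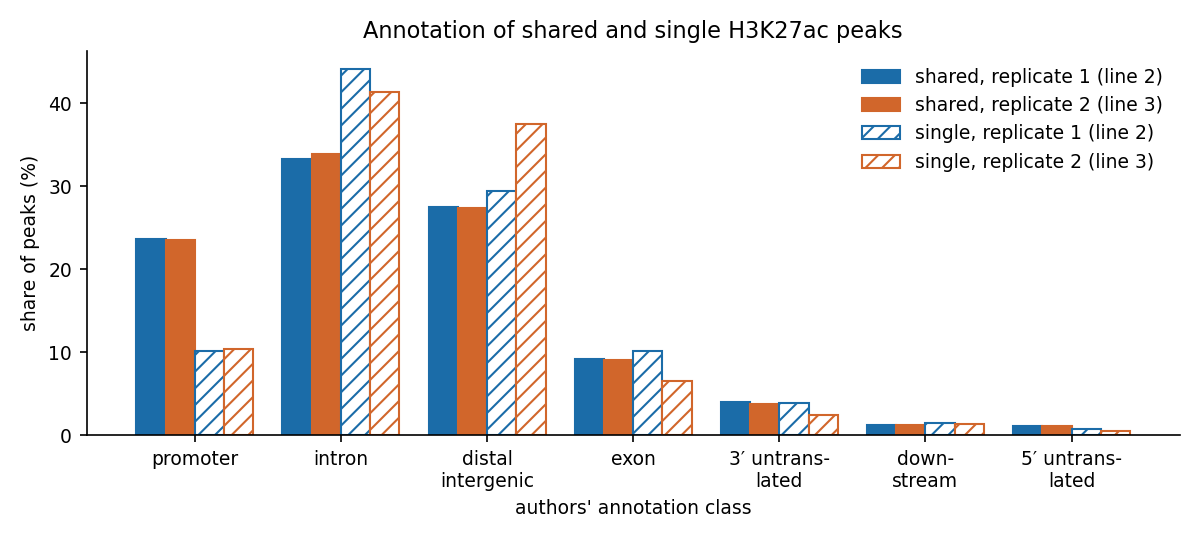
Share of peaks (%, vertical axis) in each of the authors' annotation classes, for shared peaks (filled bars) and single peaks (hatched bars) of the line 2 (blue) and line 3 (orange) libraries. Promoters take 23.6 and 23.5% of shared peaks and 10.1 and 10.4% of single peaks.

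The 10 widest shared peaks were 61.7 to 86.0 kb long and lay over genes of several kinds. Widths and coordinates (mm10) are those of line 2, and folds are given for line 2 and then line 3. The widest, of 86.0 kb (chr7:29416921-29502964), was assigned to Sipa1l3 and had folds of 7.91 and 8.58. It overlapped 11 separate peaks of line 3, so the same stretch was broken up there. The next lay over Myh9, the heavy chain of non-muscle myosin IIA (72.6 kb, 11.8 and 13.3), Capzb, which caps actin filaments (71.6 kb, 7.90 and 9.18), and Baiap2, which links small GTPases to actin (67.9 kb, 7.26 and 10.3). Actn4, an actin crosslinker, had a peak of 64.4 kb (8.28 and 9.97), and Src, a membrane-bound tyrosine kinase, one of 61.7 kb (11.9 and 12.8). Fam129b, Elk3 (a transcription factor), Adrm1 (a proteasome subunit) and Shb completed the 10 widest, at 62.9 to 66.7 kb. All 10 were of the promoter class and had folds of 7.26 to 18.5.

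The strongest distal peaks lay near genes of development as well as near genes of general function. Ranked by the fold in the weaker library, the first was 92 kb from the start of 1810010D01Rik (chr7:145102120-145116248, 14129 bp, folds of 20.7 and 22.4). Chd2, a chromatin remodeller, followed with 20.4 and 21.5, and Slit2, a secreted guidance factor, with 19.9 and 22.3. Spag6 had 18.9 and 25.5, Foxa1, a forkhead factor of endoderm-derived and other epithelia, 18.5 and 19.5, and Ahr, the dioxin receptor, 17.7 and 20.7 at a peak of 362 bp. Tmem29, Zmat3 and Elovl5 had folds of 17.9 to 19.4. The folds of these distal peaks were above the median of promoter peaks within 1 kb of a start in both libraries, which follows from ranking them by fold. Over all shared distal peaks the median fold was 3.50 in line 2 and 3.79 in line 3.

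Shared distal peaks were spread over many genes, and a minority of genes collected large numbers. The 21260 shared distal peaks of line 2 lay at a median of 36.0 kb from the start of their gene (quartiles 15.2 and 87.9 kb), 62.9% of them upstream, and 501 (2.36%) lay more than 500 kb away. They were assigned to 7153 genes, with a median of 2 per gene. Shared distal peaks of a gene are counted in line 2, and a partner in line 3 can be assigned to another gene or class or overlap several of them, so the count can exceed that of line 3. A single shared distal peak was held by 43.3% of these genes, and 343 genes (4.80%) held 10 or more and together 22.6% of the peaks. Of these 343 genes, 272 (79.3%) had a promoter peak in both libraries, against 62.5% of the genes with 1 shared distal peak. The promoter peaks of the 2 libraries need not overlap in this count.

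Inhba, which encodes the subunit of activin A, had the most. Line 2 had 51 distal peaks assigned to Inhba and line 3 had 74, and 43 were shared. All 43 lay downstream of the gene, over 747 kb of chromosome 13 up to 8.75 kb from the next gene, Sugct. The median distance of the 43 peaks from the Inhba start was 642 kb, against 36.0 kb for all shared distal peaks. Which gene they act on was not tested. Their highest fold was 13.7 in line 2 and 17.1 in line 3, and the strongest promoter peak had 14.7 and 16.5. The count at Inhba was higher in line 3, and the group was among the most numerous in both. Tgfbr2, the type II receptor for TGF-beta, followed Gc and Irf2bp2, with 56 and 41 distal peaks and 36 shared. These 36 lay upstream over 245 kb and covered 99.5 kb, the largest covered length among the 20 genes with the most shared distal peaks, and the widest had 19090 bp. By nearest-gene assignment, a ligand and a receptor whose signal the medium's inhibitor blocks were among the 4 genes with the most shared distal peaks. The part of the inhibitor was not tested, since both libraries had it.

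Other protein-coding genes of the 20 with an acetylated promoter had a range of functions. Runx1, a runt-domain factor of progenitor cells, had 69 distal peaks in line 2 and 40 in line 3, 31 of them shared, all upstream over 242 kb and covering 83.1 kb. Klf5, a Krüppel-like factor of proliferating epithelia, had 30 and 40 and shared 26, with promoter folds of 15.4 and 18.8. Irf2bp2, a transcriptional corepressor, had 44 and 39 and shared 37, which covered 80.3 kb. Tbl1xr1, a subunit of a corepressor complex, had 46 and 45 and shared 30, with promoter folds of 21.3 and 22.7. The higher count was in line 2 for Runx1, in line 3 for Klf5, and nearly equal for Tbl1xr1. Efna5, a membrane-bound ligand of Eph receptors, had 50 and 44 and shared 34 over 1949 kb, and its promoter had 20.7 and 22.9. Plk2, a kinase of the polo family, had 31 and 29 and shared 24, Frmd6, an upstream member of the Hippo pathway, 31 and 27 and shared 23, and Adamts5, a protease of the extracellular matrix, 32 and 36 and shared 25. The counts of these 4 genes differed between the libraries by at most 6 peaks.

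**Figure D3:**
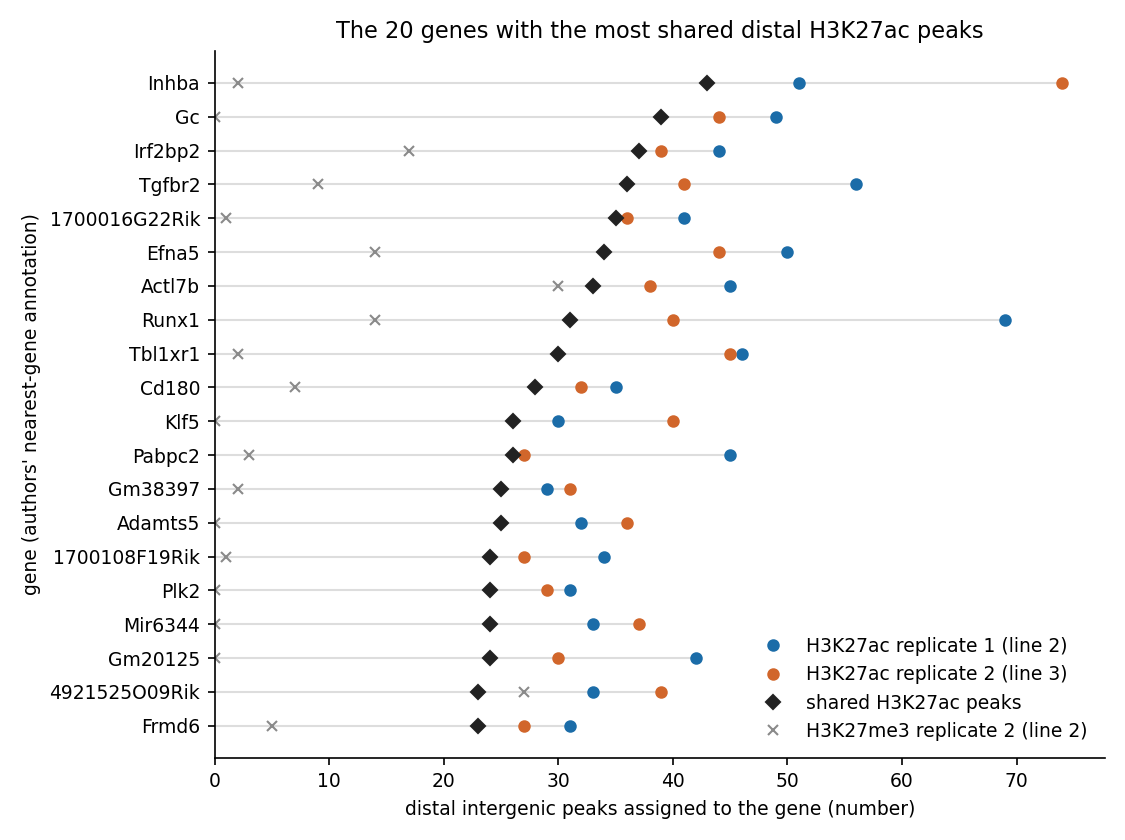
Number of distal intergenic peaks (horizontal axis) assigned to each of the 20 genes with the most shared ones, in the line 2 library (blue), in the line 3 library (orange), shared (black diamonds) and in the H3K27me3 library of line 2 (grey crosses). Inhba leads with 43 shared peaks; Runx1 has 69 in line 2 and 40 in line 3; Actl7b and 4921525O09Rik have 30 and 27 H3K27me3 peaks.

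Several names in this group belong to genes whose own promoter was weak or not listed, or to transcripts that code for no known protein. Gc, the vitamin D-binding protein made mainly by liver, had 49 and 44 distal peaks and shared 39 within 224 kb, the highest density of the 20 (17.4 per 100 kb), but its own promoter had folds of 3.22 and 3.54. Actl7b, a testis gene, had 45 and 38 and shared 33, and Cd180, a receptor of B cells, had 35 and 32 and shared 28, and neither had a promoter peak in either library. The 33 peaks of Actl7b lay in a stretch without protein-coding genes between Actl7b and Klf4, and Klf4, a Krüppel-like factor, had 22 shared distal peaks of its own. The 35 shared peaks of 1700016G22Rik (41 and 36 in the libraries) ended 12.2 kb from Klf6, an immediate early Krüppel-like factor that had 12 of its own. The 25 shared peaks of Gm38397 (29 and 31) lay beyond those of Plk2 in the same gene-free stretch, and the 24 of Mir6344 (33 and 37) ended 42.9 kb from Irs1, an adaptor of the insulin receptor. For 4921525O09Rik (33 and 39, 23 shared) the protein-coding neighbours were Gadd45g and Diras2. 1700108F19Rik (34 and 27, 24 shared), Gm20125 (42 and 30, 24 shared) and Pabpc2 (45 and 27, 26 shared) completed the 20 genes. The protein-coding gene next to such a stretch and the gene named in the list are thus often different, and which of them the peaks act on was not tested.

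Long gene-free stretches can collect peaks of any mark, so the H3K27me3 lists were set beside the counts. Actl7b had 7 and 30 distal H3K27me3 peaks (lines 1 and 2) and 4921525O09Rik 19 and 27. Runx1 had 12 and 14, Efna5 9 and 14, Irf2bp2 2 and 17 and Tgfbr2 4 and 9. Inhba had 2 and 2, Klf5 3 and 0, Adamts5 1 and 0, Plk2 2 and 0, and Gc 1 and 0. Of the 20 genes, 13 had distal H3K27me3 peaks in both H3K27me3 lists. The line 2 list had the most at Actl7b and 4921525O09Rik, while Inhba, Klf5, Adamts5, Plk2 and Gc had at most 3 H3K27me3 peaks in a list. Over the 343 genes with 10 or more shared distal H3K27ac peaks the median span of the shared peaks was 181 kb and the median density 7.35 peaks per 100 kb. Of these genes, 83 had more distal H3K27me3 peaks in the line 2 list than shared distal H3K27ac peaks. No distal H3K27me3 peak in either list was found for 25.

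Shared peaks outside promoters were also joined where gaps were at most 12.5 kb. The 59100 peaks formed 23279 clusters, of which 805 held 10 or more peaks and together 21.2% of the peaks. The largest by covered length was at Bcar3, an adaptor in integrin signalling, with 46 peaks that covered 159 of 304 kb. Tead1, a DNA-binding partner of YAP, followed with 44 peaks that covered 150 of 236 kb, Myo10, a myosin of filopodia, with 28 peaks and 125 of 183 kb, and A530013C23Rik, a cluster that extends to Ptpn1, with 21 peaks and 122 of 166 kb. Asap1 (117 kb), Smad3, which transmits TGF-beta and activin signals (115 kb of 145 kb), Apbb2 (113 kb), 2610035D17Rik (112 kb) and Etv6 (112 kb) were also among the 10 largest. The clusters at Myo10, Apbb2 and Etv6 held no distal intergenic peak, and that at A530013C23Rik held 21 of 21. Among clusters of distal intergenic peaks alone, A530013C23Rik was followed by Ccnd1, the D-type cyclin that drives entry into the cell cycle. Its 13 peaks covered 86.3% of 121.1 kb (chr7:144951826-145072949), and the highest folds were 13.6 and 12.1. The cluster of 1810010D01Rik, which holds the strongest distal peak, lay next to it (chr7:145087706-145163527).

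Gene lists of pathways were set beside all protein-coding genes. The lists were chosen with earlier results of these data known, so their counts are a description, and a link to the medium was not tested. Over all 21627 protein-coding genes of the RefSeq table, 54.5% had a shared promoter peak, 28.1% had at least 1 shared distal peak and 4.55% had 5 or more, and the median number of shared distal peaks was 0. Of 20 genes of the FGF and EGF response and its feedback, 20 had a shared promoter peak, 19 at least 1 shared distal peak and 11 had 5 or more, with a median of 5. Dusp6, the phosphatase that switches off ERK, had 27 and 18 distal peaks, 15 of them shared, and promoter folds of 22.3 and 26.95. Lif, a cytokine, shared 11 (15 and 13 in the libraries), and its widest distal peak, of 21.8 kb, had folds of 14.1 and 14.9. Spred2, an inhibitor of the same pathway, shared 10 (16 and 16) and Errfi1, which binds and inhibits EGF receptors, 9 (11 and 10). Spred2 also had 22 and 64 distal H3K27me3 peaks, and Errfi1 had 0 and 1. At least 5 distal H3K27me3 peaks in each H3K27me3 list were held by 4 of the 20 genes, against 6.23% of all genes. A share with 5 or more shared distal H3K27ac peaks above that of all genes was not particular to pathway lists. It was 25% for the BMP list, and 25% for endothelial, 27.3% for mesenchymal and 20% for immature neuron markers.

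Genes of TGF-beta and activin signalling, and of BMP signalling, were marked at nearly all promoters. Of 14 genes of the TGF-beta and activin pathway, 14 had a shared promoter peak and 6 had 5 or more shared distal peaks (median 3.5). Besides Inhba and Tgfbr2, Smad3 shared 13 (24 and 15 in the libraries) and Acvr2a, an activin receptor, shared 9 (13 and 21). Of 20 BMP receptors and targets, 19 had a shared promoter peak and 5 had 5 or more shared distal peaks (median 3). Smad6 and Smad7, inhibitory SMADs, shared 10 (20 and 10) and 8 (11 and 6), and the targets Id3 and Msx2 shared 6 each. The receptor gene Bmpr1a had promoter folds of 27.8 and 29.9, among the highest of the lists, with 1 shared distal peak. In the BMP list 6 genes had at least 5 distal H3K27me3 peaks in each list, 1 more than had 5 or more shared distal H3K27ac peaks. At Bmpr1b, the exception at promoters, the library of line 3 had a fold of 3.72 and that of line 2 no peak.

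Immediate early, Hippo, adhesion and epithelial genes also had the mark at nearly all promoters. Of 14 AP-1 and immediate early genes, 13 had a shared promoter peak and 4 had 5 or more shared distal peaks (median 1.5), namely Fosl2 with 13, Klf6 with 12, Jun with 10 and Fos with 9. Fosl2 was stronger at the promoter in line 2 (19.6) than in line 3 (11.3), and Jun was alike (17.2 and 17.5). Of 17 genes of the Hippo pathway, 16 had a shared promoter peak and 3 had 5 or more shared distal peaks (median 2). Ccn1 shared 10 (21 and 13), Ccn2 8 (14 and 16) and Tead1 8 (11 and 10); Ccn1 and Ccn2 are secreted proteins whose genes are standard YAP targets. Crim1 shared 4 (6 and 14). Of 19 adhesion and actin genes, 19 had a shared promoter peak and 3 had 5 or more shared distal peaks (median 2). Actn1, an actin crosslinker, shared 11 (16 and 8), Tpm1, a tropomyosin, 9 (10 and 11) and Itgb1, the beta-1 integrin, 6 (8 and 6), and Itgav, the alpha-V integrin, shared 4 (4 and 5). Of 16 genes of epithelial junctions and keratins, 15 had a shared promoter peak and 4 had 5 or more shared distal peaks (median 3), namely Grhl2, a transcription factor of epithelia, with 14, Tjp1 with 12, Cldn1 with 9 and Epcam with 8.

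A missing promoter peak could come from the rule that gives each peak 1 gene. Of the 88 list members without a shared peak of the promoter class, 4 had peaks of both libraries over the 250 bases before a RefSeq start of their own. At Klf6 a peak of 10715 bp, named for 1700016G22Rik, had folds of 12.5 and 14.8 there. At Lats1, a Hippo kinase, the peak was named for BC020402 (19.7 and 20.3), at Cldn4, a claudin, for Mettl27 (38344 bp wide, 9.84 and 13.1), and at Cd68, a macrophage marker, for Mpdu1 (8.52 and 9.28). Counting these peaks, each of the immediate early, Hippo and epithelial genes listed had a peak at or near its start in both libraries. Each of the 4 peaks was named for another gene, so the mark of the member and that of the named gene cannot be told apart. Lats1 also had promoter peaks of its own name, with folds of 2.69 and 2.47, that were not shared.

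Markers of neurons, glia and other tissues were marked at fewer promoters and more weakly. Of 10 markers of mature olfactory neurons, 2 had a shared promoter peak and none had 5 shared distal peaks. Omp, the olfactory marker protein, had promoter folds of 3.61 and 3.65, Adcy3, the cyclase of odour transduction, 6.75 and 6.43, and Rtp1, which carries odorant receptors to the surface, 3.10 and 2.32 in promoter peaks that did not overlap, with 4 shared distal peaks. Of 10 markers of immature neurons, 3 had a shared promoter peak, but Ncam1, an adhesion molecule, shared 15 distal peaks (16 and 18) and Gap43, a growth cone protein, 11 (13 and 13). Ncam1 had promoter folds of 2.99 and 5.08, and Gap43 had none in line 2 and 2.88 in line 3. The distal counts at both genes were nearly equal between the libraries. Shared promoter peaks were held by 7 of 8 horizontal basal cell markers, 5 of 8 globose basal cell markers and 5 of 9 neural stem cell markers. They were also held by 3 of 8 markers of sustentacular cells or glands, namely Krt8, Krt18 and Aqp5. Among the horizontal basal cell markers, Trp63, the gene for p63, shared 15 distal peaks (20 and 20), with a promoter of 2.98 and 5.54.

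Other cell types that a culture could hold were checked in the same way. Of 11 mesenchymal markers, 5 had a shared promoter peak and 3 had 5 or more shared distal peaks. Prrx1, a homeodomain factor of mesenchyme, shared 8 and had promoter folds of 14.1 and 9.44, Thy1 shared 6 (3.83 and 4.90), Col1a2 shared 6 with a promoter peak in line 2 alone (3.06), and Twist1 had 15.5 and 8.86. Col3a1 and Pdgfrb had no promoter peak in either library. Of 8 endothelial markers, 2 had 5 or more shared distal peaks and 3 had a shared promoter peak, with folds of at most 5.01. Emcn had none but shared 17 distal peaks (28 and 17), and Flt1 shared 8. Pecam1, Cdh5 and Tie1 had no promoter peak. Of 9 immune markers 3, of 7 glial markers 3, of 10 liver genes 2 and of 10 pluripotency genes 3 had a shared promoter peak. The immune ones had folds of at most 3.50, Ptprc had no promoter peak, and Sox10 of the glial list had none.

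**Figure D4:**
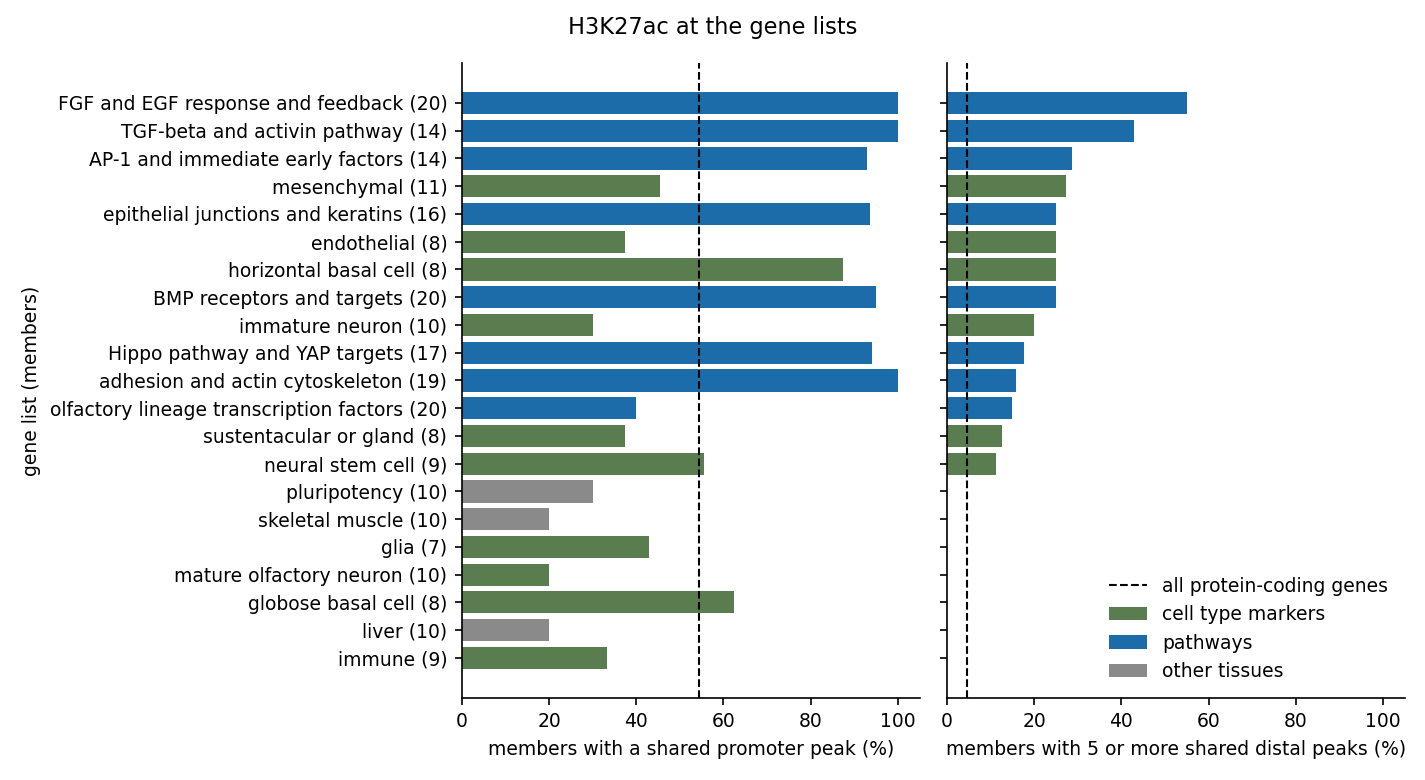
Percentage of the members of each gene list (number of members in brackets) with a shared promoter peak (left) and with 5 or more shared distal peaks (right). Dashed lines give all protein-coding genes (54.5 and 4.55%); pathway and lineage factor lists are blue, cell type markers green and other tissues grey, and the FGF and EGF list reaches 100 and 55%.

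Transcription factors of the olfactory lineage ranged from strong shared promoter peaks, through weak ones shared or found in 1 library, to none. Of 20 factors, 8 had a shared promoter peak and 3 had 5 or more shared distal peaks. Sox4 had promoter folds of 24.6 and 26.7, and Runx1 of 19.3 and 19.9. Sox11 had 4.14 and 8.99, with 26 and 37 distal peaks of which 21 were shared. Neurod1 (2.71), Ebf1 (2.51), Ebf2 (2.78) and Emx2 (2.72) had weak promoter peaks that were listed in line 3 and not in line 2, and Insm1 in line 2 (2.63) and not in line 3. St18 (2.87 and 2.88) and Ebf4 (2.55 and 3.40) had weak promoter peaks that were shared. Neurog1, Lhx2, Neurod2, Ebf3, Nhlh1 and Nhlh2 had no promoter peak in either library. At least 5 distal H3K27me3 peaks in each H3K27me3 list were held by 7 of these 20 genes. Among neural stem cell genes, Hes1, a Notch target, had promoter folds of 19.97 and 16.9 and shared 11 distal peaks, Notch1 had 8.44 and 7.55, and Nes 2.70 and 3.67.

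The lines differed at a small number of strongly marked places, mostly with the peak in line 3. Pax6, a homeodomain factor of eye, nose and brain, had a promoter peak of 10714 bp with a fold of 12.5 in line 3 (chr2:105667471-105678184) and none in line 2. Pitx1, a homeodomain factor of oral and limb tissue, had one of 8754 bp with 13.1 in line 3 (chr13:55823592-55832345) and none in line 2. Isl1, a LIM-homeodomain factor, had single peaks of 11.2 and 11.1 in line 3, Robo1, a receptor for Slit proteins, one of 11.9 at its promoter, and Six3os1, a transcript beside Six3, distal ones of 16.8 and 11.6. In line 2 the strongest single peaks lay at the promoters of A830082K12Rik (11.3) and, next to it, of Nr2f1, a nuclear receptor of neural patterning (10.5), and a distal peak of Irx2 had 7.61. These peaks were picked by their fold after it was seen, and each is a description of 1 library.

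Counts of distal peaks also differed between the lines. The 10 genes with the largest differences are given in each direction, so they do not show which line had more. Line 2 had more at Gm5860 (53 and 19 in lines 2 and 3), Rnf144b (49 and 20), Runx1 (69 and 40), Asap1 (47 and 21), Rorb (27 and 8), Gm815 (24 and 6), Pabpc2 (45 and 27), Psat1 (30 and 12), A530006G24Rik (28 and 11) and Gm31763 (40 and 23). Rorb, Gm815 and Psat1 lie on chromosome 19 and Gm31763 on chromosome 10. Line 3 had more at Inhba (51 and 74), Hs6st1 (12 and 33), Fgf9 (0 and 18), 1810013L24Rik (14 and 31), 1500009L16Rik (8 and 23), Mycn (2 and 17), Pard6g (3 and 16), Atp1b1 (3 and 15), C1qtnf7 (0 and 12) and Cntnap5a (3 and 15). Fgf9 lies on chromosome 14 and Hs6st1, Atp1b1 and Cntnap5a on chromosome 1, where line 3 had the larger share of peaks. Line 2 had the larger share on chromosomes 10 and 19. 1500009L16Rik went against this, with more peaks in line 3 though it lies on chromosome 10. The remaining genes of both directions lie on other chromosomes. Fgf9 encodes a fibroblast growth factor and Mycn a MYC-family factor of progenitors. The Fgf9 promoter had a fold of 5.12 in line 3 and no peak in line 2, with distal folds of up to 8.16, and Mycn had promoter folds of 2.57 and 3.76, with distal folds of up to 6.63 and 11.5. Promoter and distal peaks thus stood on the side of line 3 at Fgf9, and the Mycn promoter had weak peaks in both.

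The lists also differed by chromosome. Chromosome 19 held 5247 peaks (4.26% of its list) in line 2 and 3211 (2.86%) in line 3, a ratio of shares of 1.49, and chromosome 10 held 7964 and 5721, a ratio of 1.27. At the other end were chromosome 14 with 3551 and 4510 (0.717), X with 1500 and 1859 (0.735) and chromosome 1 with 6270 and 7572 (0.754). In line 2, 46.8% of the chromosome 19 peaks and 51.2% of the chromosome 10 peaks were shared, and their single peaks had a median fold of 2.46 and 2.52. The CBX8 lists, the other pair from lines 2 (passage 19) and 3, differed in the same direction on all 5 chromosomes. Their shares in lines 2 and 3 were 8.25 and 2.71% on chromosome 19, 7.77 and 4.65% on chromosome 10, 2.24 and 4.31% on chromosome 14, 1.26 and 1.81% on X, and 4.21 and 6.58% on chromosome 1. The RING1B and H3K27me3 lists pair line 2 with line 1, which has no H3K27ac list here. Chromosome 19 took 7.68% of the RING1B peaks of line 2 and 3.95% of those of line 1, and 4.22 and 3.17% of the H3K27me3 peaks. For H3K27me3, however, X (0.436 and 0.274%) and chromosome 1 (6.64 and 6.60%) had the larger share in line 2. Without chromosomes 10 and 19, 64.5% of the peaks of line 2 and 69.5% of those of line 3 were shared. What produced the pattern was not tested, and it touches each gene named on these chromosomes, such as Dusp6, Ccn2, Perp and the microRNA Mirlet7i on chromosome 10. Of the 10 skeletal muscle genes, for example, 6 had a promoter peak of their name in line 2 and none in line 3 (Myf5 2.45, Myf6 3.15, Myod1 2.32, Tnnt3 2.88, Actn3 5.59 and Pygm 2.73). Myf5 and Myf6 lie on chromosome 10, and Actn3 and Pygm on chromosome 19, but Myod1 and Tnnt3 lie on chromosome 7. The Actn3 peak overlapped a line 3 peak assigned to Zdhhc24, and so counts as shared.

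**Figure D5:**
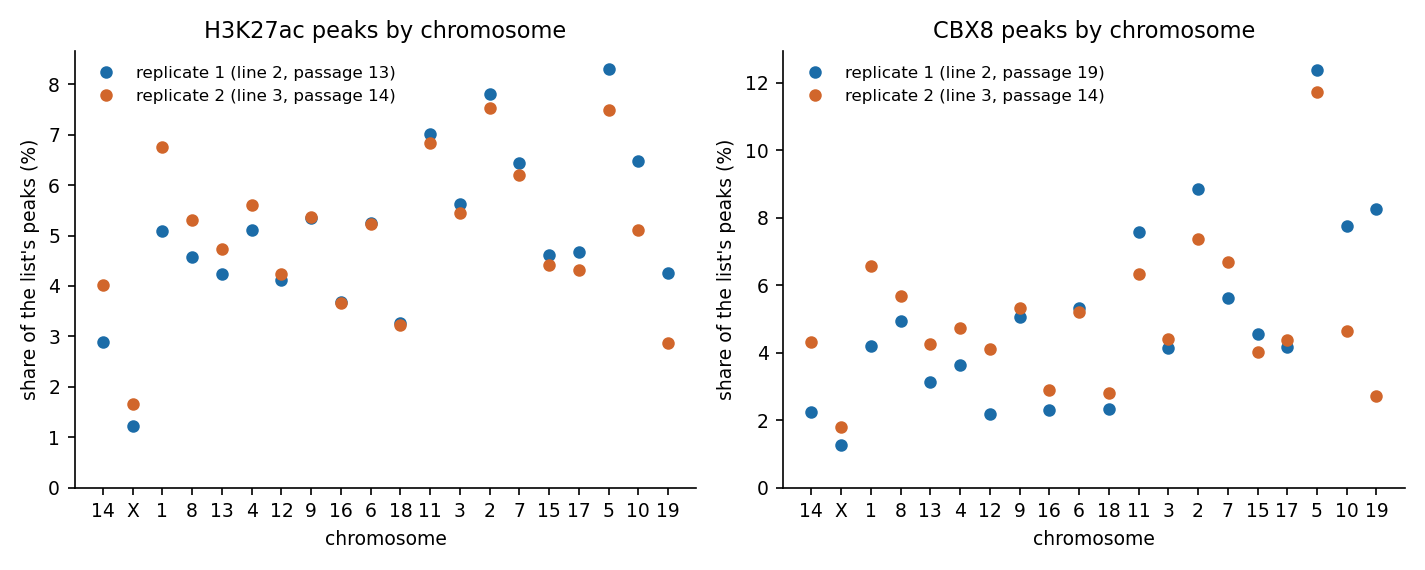
Share of each list's peaks (%, vertical axis) on each chromosome, for H3K27ac (left) and CBX8 (right), in line 2 (blue) and line 3 (orange). Chromosomes are ordered by the ratio of the H3K27ac shares; chromosomes 10 and 19, at the right, take more of the line 2 lists in both panels.

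MicroRNA genes add a set of regulatory products whose sequences are short enough to show. Of 1005 microRNA hairpins in the RefSeq table, 266 (26.5%) lay under a peak of both libraries, 80 hairpins under a peak of line 2 alone and 39 under one of line 3 alone. For the 250 bases before all RefSeq starts the share under peaks of both libraries was 42.1%, though hairpins differ from these windows in length. Several hairpins can lie under the same peak, and many lie inside other genes, so a peak over one can belong to its host. The following were chosen after their values were seen, for their strong peaks and because pairs of them share a seed, bases 2 to 8 of the mature strand, printed in capitals.
let-7i-5p: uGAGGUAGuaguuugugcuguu
let-7e-5p: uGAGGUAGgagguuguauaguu
miR-125a-5p: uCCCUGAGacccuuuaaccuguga
miR-125b-5p: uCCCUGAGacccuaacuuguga
miR-200c-3p: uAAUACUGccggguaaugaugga
miR-141-3p: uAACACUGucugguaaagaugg
miR-21a-5p: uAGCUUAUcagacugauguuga
miR-23a-3p: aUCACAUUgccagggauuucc
miR-27a-3p: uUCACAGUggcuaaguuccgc

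Mirlet7i had the strongest peak of all hairpins, with folds of 24.7 and 29.2. Its mature strand shares the seed GAGGUAG with let-7e, whose hairpin Mirlet7e lies beside Mir125a under the same peak (16.3 and 16.7). miR-125a and miR-125b share the seed CCCUGAG. miR-125b has 2 hairpins, of which Mir125b-1 on chromosome 9 lay under a peak of both libraries (13.2 and 12.4) and Mir125b-2 on chromosome 16 under none. Mir200c and Mir141, microRNAs of epithelial cells, lay under the same peak (11.3 and 13.4). Their seeds, AAUACUG and AACACUG, are not identical. Mir23a and Mir27a shared a peak as well (13.7 and 12.4), and Mir21a had 12.0 and 13.1. None of these peaks differed between the libraries by more than 1.5 times, and the level of the microRNAs was not measured.

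Promoter sequence was also compared over all RefSeq starts. Of 32619 windows of 250 bases before a start, 13735 (42.1%) lay under peaks of both libraries, 2168 under a peak of 1 library and 16716 under none. The median number of CpG was 16, 5 and 3, and the median GC content 60.4, 52.8 and 46.8%. GGGCGG was held by 57.7% of the windows marked in both libraries, 13.1% of those marked in neither and 33.0% of all windows. CCGGAAG, bound by ETS factors, was held by 13.5, 2.04 and 6.96%, and TGACGTCA, the cAMP response element, by 2.63, 0.772 and 1.56%. TATAAA went the other way, with 5.69, 18.2 and 12.4%, as did CAGNTG, an E-box (38.5, 49.3 and 44.8%), TGANTCA (5.18, 7.94 and 6.78%) and GGAATG, bound by TEAD factors (10.8, 13.8 and 12.6%). CCAAT was alike (34.1, 33.9 and 34.0%). Windows can overlap and genes can have several starts, the motifs follow GC content, and no site was tested for binding. Inhba, with a TATAAA and 3 CpG, is thus an acetylated promoter of the less common kind, and Frmd6, with 28 CpG and 8 GGGCGG, of the common kind.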

How the data were processed

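Chromatin of 2 cell lines was profiled by ChIP-seq for H3K27ac, and 1 deposited list of broad peaks per library was used. The submitters' processing notes name MACS2 (2.1.1.20160309), BWA (0.7.12), Trim Galore (0.4.3), bcl2fastq (2.17) and the build mm10. How these were set, and which input served as control, is not given in the sources used here. Per the file headers, each deposited peak has a fold enrichment, which is the authors' ratio over control, and a −log10 q-value, which the authors' caller computed and which was used for a stricter threshold (at least 5). The lowest −log10 q-value was 1.01 in both lists. Every peak name contains "combined". No source explains it, so reads may have been pooled before calling. The lists give no counts, so depth is unknown and no interval is printed.

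Overlap of at least 1 bp, counts and medians were computed in Python 3.11.15 with pandas 2.3.3, and the overlap was tested on simulated data. Peaks on chromosome Y (84 and 77) were left out. No per-sample column of another series was found (0). Gene lists (21, with 258 genes) were matched to the RefSeq table of GRCm38.p6 (258 of 258). Promoter windows and microRNAs come from RefSeq tables of the same build. The members and lists were chosen with earlier results of these data known. Genes were named by fixed ranks: the 20 with the most shared distal peaks, the 10 strongest distal peaks, the 10 widest peaks, the 10 largest count differences in each direction, the 10 largest clusters, and up to 4 genes per list. Other named genes, microRNAs and printed promoters were chosen after their values were seen. No test was made with 2 libraries. Some genes that these ranks select are not reported here.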

Additional observations from a re-analysis of the deposited data

How the results depend on the processing

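The share of line 2 peaks that are shared (62.9%) was 51.7% when 50% of the peak had to be covered, 82.7% with a −log10 q of at least 5, 88.1% with a fold of at least 4 and 70.3% counted in line 3. It was 62.9% with chromosome Y and 64.5% without chromosomes 10 and 19, a choice made after seeing the data. Distal intergenic peaks were 27.5% of shared peaks and 20.9% of their bases, and 28.2 to 30.3% of all peaks when a replicate was left out. The median width of 1054 bp was 1365 bp with peaks less than 1 kb apart joined, and 704 to 726 bp in either library alone. The ratio of median folds, 1.33, was 1.41 with 50% coverage, 1.26 among peaks of 500 bp to 2 kb and 1.32 in line 3.

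The number of genes with 10 or more distal peaks was 343 as reported, 1107 when any peak more than 10 kb from the named start counted, 215 with joined peaks, 43 with the stricter q, and 762 to 809 in a single library. With the 10 kb rule, which adds introns, Ank3 led with 72 peaks, followed by Nfib with 66, and 3 of the 20 genes stayed among the first 20. With joined peaks 17 stayed and with the stricter q 16, and Inhba led in both, with 36 and 21. In line 3 alone 15 stayed, and in line 2 alone 11, where Runx1 led with 69. The share of list genes with a promoter peak was 65.9%, 67.4% within 5 kb of the start, 55.8% with the stricter q and 71.7% in either library alone. With the stricter q, members with a shared promoter peak went from 3 to 0 for endothelial and for immune markers, 7 to 4 for horizontal basal cells, 5 to 2 for neural stem cells, 3 to 1 for immature neurons and pluripotency, and 2 to 1 for liver. In line 3 alone they were 13 for lineage factors (8 shared), 4 for mature neurons (2) and 1 for skeletal muscle (2). In line 2 alone they were 7 for skeletal muscle and 8 for mesenchymal markers (5), and 5 immune markers had a shared peak within 5 kb.

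No paired analysis was possible because the 2 libraries form 1 group and no result comes from a test. Both libraries come from single lines, line and passage cannot be told apart, and a gene without a peak had none listed at a depth that is unknown.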
